A study of Homo sapiens with 6 samples.

Results

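The 42 genes described here are the interferon and HLA class I antigen presentation genes of VCaP, a line of human prostate cancer cells. They were taken by symbol from the 58735 gene rows of a count table. All 42 matched 1 row each. The group holds 19 interferon-stimulated genes, 12 antigen presentation genes, 4 interferon receptor subunits, 5 transcription factors and 2 RNA sensors. Gene counts were compared between 3 libraries from VCaP cells stably carrying a short hairpin RNA against NEDD9 (shNEDD9) and 3 from VCaP cells stably carrying a non-targeting hairpin (shNTC). Cells of both groups grew in DMEM with 10% FBS, and no interferon was named among the treatments. The labels name 1 hairpin for each group and do not say whether the infected cells were pools or clones. The samples are described as biological triplicates, but nothing says that they came from separate infections, so the p-values rest on a spread between libraries that may be technical in part or in whole.

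Interferons are secreted proteins that bind receptors on the cell surface. Type I interferons bind IFNAR1 and IFNAR2 and interferon gamma binds IFNGR1 and IFNGR2. Janus kinases on these receptors then phosphorylate STAT proteins. STAT2 and IRF9 are parts of the complex ISGF3, which binds interferon-stimulated response elements in the promoters of interferon-stimulated genes. Many of these genes encode antiviral proteins. Interferon, through IRF1 and NLRC5, also raises the HLA class I genes, whose proteins pair with B2M and show peptides on the cell surface to CD8 T cells. Natural killer cells, in contrast, are held back by class I molecules, HLA-E among them.

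Library totals were 3217276 to 7492244 counts in shNTC and 5956486 to 9902002 in shNEDD9, so that a count of 3, the floor of detection, equals 0.303 to 0.932 CPM, the counts scaled to library size. This floor covers counting error only. NEDD9 stood at 339 to 365 CPM in shNTC and 136 to 138 CPM in shNEDD9, and it fell 2.62-fold. All 11 markers fixed for the prostate line passed the count filter. 6 of them fell and 3 rose, with a summed level of 15076 to 15320 CPM in shNTC and 17383 to 17945 CPM in shNEDD9. KLK3, the gene of prostate-specific antigen, was 3.36-fold higher and FOLH1, that of the membrane antigen PSMA, 3.21-fold lower. The summed level of 14 immune cell markers was 29.6 to 32.7 CPM in shNTC and 13.2 to 14.9 CPM in shNEDD9, and 4 of them passed the count filter. Of these the lysozyme gene LYZ fell 10.5-fold, from 15.2 to 20.1 CPM in shNTC to 1.34 to 1.65 CPM in shNEDD9. CD8A (121 counts over all libraries), KLRD1 (188 counts) and CD14 (173 counts) were not called. CD4 had 42 counts and was not tested, PTPRC had 1 count, and 3 markers, CD3D and CD3E among them, had 0 counts. Of 10 stromal and endothelial markers 3 passed, with a summed level of 27.7 to 36.4 CPM against 49.8 to 56.3 CPM, and LUM (2.37-fold higher) gave most of it in shNEDD9. COL1A1 fell 1.46-fold, but its call was lost when shNTC replicate 2 was left out (log2 fold change -0.38, edgeR adjusted p = 0.112). The part of these markers in the results below was not tested. In bulk RNA, fewer cells that express a gene and less RNA per cell cannot be told apart.

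The genes of this group were mostly lower in shNEDD9. Of the 36 members that passed the count filter, 22 fell, 2 rose and 12 were not called (edgeR's quasi-likelihood test, Benjamini-Hochberg adjusted p under 0.05 over 13958 genes). Changes were very common in this comparison, since 71.4% of all tested genes were called, 35.9% as lower and 35.5% as higher. The called share of the members, 66.7%, was therefore near the background, whereas their split was 61.1% lower and 5.56% higher. The median log2 fold change of the members was -0.33, beside 0.00 over all tested genes. Most changes were modest. 6 members were at least 2-fold lower (IFI44, IFIT3, OAS1, HLA-B, HLA-E and STAT2) and 0 at least 2-fold higher, where 9.22% and 7.67% of all tested genes were. The groups did not overlap in 26 members, 24 lower and 2 higher, where 71.8% of all tested genes did not overlap, 36.1% lower and 35.7% higher. None of the 36 passed the filter through 1 group alone (0 genes). The other 6 members, IFI27, IFI44L, OAS2, OASL, BST2 and IRF9, had too few counts to be tested. Their counts are given below as sums or per library, and the shNEDD9 libraries hold more counts in total.

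**Figure D1:**
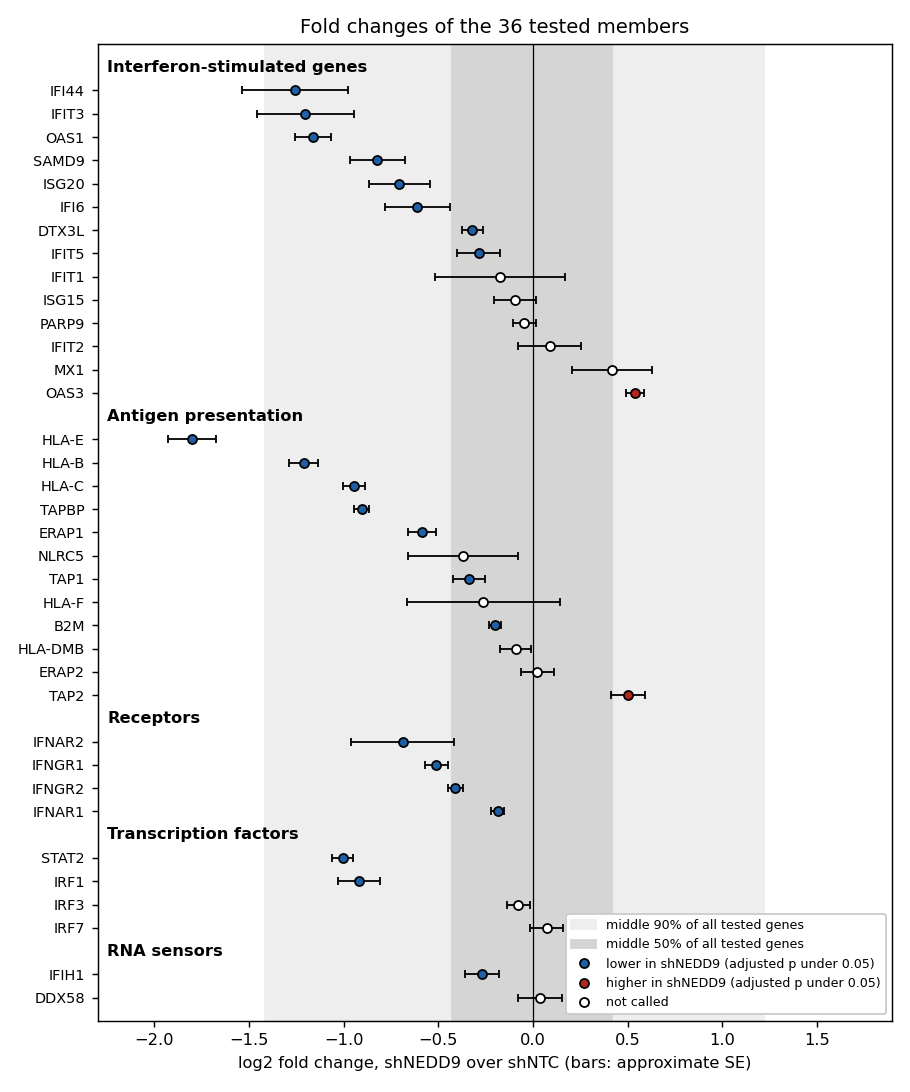
Fold changes of the 36 tested members, as log2 of shNEDD9 over shNTC on the horizontal axis with approximate standard errors as bars, grouped by role. Blue and red points passed the test and open points did not; HLA-E, at -1.80, lies farthest from 0 and beyond the shaded middle 90% of all tested genes (-1.42 to 1.22), and OAS3 and TAP2 are the 2 members that rose.

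Promoters of the members were searched for the core of the interferon-stimulated response element on both strands, taken as GAAA, any 2 bases and GAAA again. RefSeq windows (GRCh38.p14) from 250 bases before to 50 bases after the transcription start were found for 34 of the 42 members. The core was present in 23 of these 34, or 67.6%, and in 4.38% of the 27305 gene symbols with a window. Some genes had several windows and were counted if any of them held the core, or the site searched below. PARP9, ERAP1, ERAP2, TAP1 and MX1 each also had a window without the core. A match is a description of the letters and not of binding. The interferon gamma-activated site, searched as TTCNNNGAA, was present in 7 of the 34, or 20.6%, and in 9.38% of all symbols. Those 7 were IFI27, MX1, OAS1, BST2, TAP1, IRF1 and IRF9.

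4 promoters are printed because they belong to members that moved in opposite directions and yet all hold the response element core. IFI44 and TAPBP fell, and OAS3 and TAP2 rose. Each line gives 300 bases from 5′ to 3′ on the strand of the gene, with the core, found on either strand, in capitals.
IFI44, chr1:78649539-78649838, plus strand: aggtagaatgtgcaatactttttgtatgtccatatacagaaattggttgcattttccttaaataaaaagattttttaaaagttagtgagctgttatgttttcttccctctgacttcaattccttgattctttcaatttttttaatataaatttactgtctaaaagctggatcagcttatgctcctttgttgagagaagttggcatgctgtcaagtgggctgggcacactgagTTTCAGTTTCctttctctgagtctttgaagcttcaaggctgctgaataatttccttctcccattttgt
TAPBP, chr6:33314029-33314328, minus strand: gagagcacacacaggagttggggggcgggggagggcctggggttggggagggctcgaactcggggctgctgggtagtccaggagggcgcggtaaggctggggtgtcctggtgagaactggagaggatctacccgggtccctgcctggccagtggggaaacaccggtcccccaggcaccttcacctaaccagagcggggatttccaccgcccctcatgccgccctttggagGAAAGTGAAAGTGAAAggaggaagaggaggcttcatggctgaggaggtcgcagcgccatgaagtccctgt
OAS3, chr12:112938224-112938523, plus strand: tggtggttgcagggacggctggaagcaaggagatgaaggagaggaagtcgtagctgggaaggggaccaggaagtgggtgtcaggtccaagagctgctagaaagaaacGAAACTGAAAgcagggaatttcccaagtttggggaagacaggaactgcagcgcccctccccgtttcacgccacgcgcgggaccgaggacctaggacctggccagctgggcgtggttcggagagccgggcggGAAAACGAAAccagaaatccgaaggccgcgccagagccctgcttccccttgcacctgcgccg
TAP2, chr6:32838690-32838989, minus strand: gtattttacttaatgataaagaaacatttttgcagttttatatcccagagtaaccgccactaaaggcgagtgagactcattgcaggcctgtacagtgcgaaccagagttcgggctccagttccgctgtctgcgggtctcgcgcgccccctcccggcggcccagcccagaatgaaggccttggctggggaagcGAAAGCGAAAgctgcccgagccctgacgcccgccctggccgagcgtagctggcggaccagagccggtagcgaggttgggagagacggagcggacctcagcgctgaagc
In the printed window of IFI44, which also has another window, the core began 18 bases before the start. In TAPBP a pair of cores that overlap began 20 and 14 bases before it, in OAS3 they began 143 and 12 bases before it, and in TAP2 the core began 58 bases before it. Of the 20 tested members with the core, 12 fell, 2 rose and 6 were not called, with a median log2 fold change of -0.28. Of the 10 tested members whose windows all lacked it, 8 fell and 2 were not called, with a median of -0.71. The latter include HLA-B, HLA-C, OAS1, STAT2 and IRF1. Of the 6 tested members with no window, HLA-E among them, 2 fell and 4 were not called, with a median of -0.22. Of all tested genes 35.9% fell and 35.5% rose. These groups of members are small, members with and without the core also differ in role, and the part of the core in their changes was not tested. The core was thus present beside changes in both directions.

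Interferon-stimulated genes were lower in part. Of the 14 tested of 19, 8 fell (IFI44, IFIT3, OAS1, SAMD9, ISG20, IFI6, DTX3L and IFIT5), 1 rose (OAS3) and 5 were not called (IFIT1, IFIT2, ISG15, MX1 and PARP9). Their median log2 fold change was -0.30. Of these 14 genes 64.3% were called, 57.1% as lower and 7.14% as higher. Of all tested genes 71.4% were called, 35.9% as lower and 35.5% as higher.

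The 2'-5'-oligoadenylate synthetases sense double-stranded RNA and make the messenger that activates RNase L. OAS1 (chromosome 12, 112906777 to 112933222, GRCh38) stood at 35.4, 42.1 and 38.5 CPM in the shNTC libraries and at 17.3, 16.5 and 17.0 CPM in shNEDD9. Each shNEDD9 library lay below every shNTC library, and OAS1 fell 2.24-fold (log2 fold change -1.16, SE 0.10, edgeR adjusted p = 2.05e-33). OAS3, its neighbour (112938352 to 112973249), stood at 101, 104 and 101 CPM in shNTC and at 150.1, 147 and 146 CPM in shNEDD9. All shNEDD9 libraries were higher, and OAS3 rose 1.45-fold (log2 fold change 0.54, SE 0.05, edgeR adjusted p = 9.23e-31). OAS2 lies next to OAS3 and had 7 counts in shNTC and 5 in shNEDD9. OASL, an inactive relative, had 14, 4 and 14 counts against 3, 4 and 5 and did not pass the count filter. OASL was called under 7 of the 15 alternative settings, but it was above the filter level in 2 shNTC and 0 shNEDD9 libraries. Where leaving out a library brought OASL into the test, it passed the filter through shNTC alone and so had to differ.

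The IFIT genes encode proteins that bind foreign RNA, and they lie together on chromosome 10 (IFIT2 to IFIT5, 89283694 to 89421001, GRCh38). IFIT3 stood at 5.78, 3.77 and 5.16 CPM in shNTC and at 2.85, 1.65 and 2.32 CPM in shNEDD9. It fell 2.30-fold with groups that did not overlap (log2 fold change -1.20, SE 0.25, edgeR adjusted p = 4.67e-06). IFIT5 went from 20.8 ± 1.38 to 16.8 ± 0.56 CPM (SD, n = 3 each). It fell by 0.29 on the log2 scale (SE 0.11, edgeR adjusted p = 0.0147), but the call was lost when shNEDD9 replicate 3 was left out (edgeR adjusted p = 0.0554). IFIT1, at 1.56 to 2.51 CPM in shNTC and 1.51 to 2.01 CPM in shNEDD9, and IFIT2, at 7.20 to 9.11 and 7.97 to 8.90 CPM, were not called and their groups overlapped. At these levels the 95% interval of the log2 fold change of IFIT1 ran from -0.85 to 0.50 and that of IFIT2 from -0.24 to 0.42.

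IFI44 (chromosome 1, 78649796 to 78664078, GRCh38), a gene that interferon induces strongly, stood at 4.17, 6.28 and 3.60 CPM in shNTC and at 2.01, 1.65 and 1.82 CPM in shNEDD9. All shNEDD9 libraries were lower, and IFI44 fell 2.39-fold (log2 fold change -1.26, SE 0.28, edgeR adjusted p = 1.24e-05). Its neighbour on chromosome 1, IFI44L, had 8 counts against 4. SAMD9, an antiviral gene of chromosome 7, stood at 13.9 to 14.8 CPM in shNTC and 7.38 to 9.16 CPM in shNEDD9 and fell 1.77-fold (edgeR adjusted p = 4.05e-08). ISG20, an exonuclease gene, fell from 11.3 ± 1.69 to 6.61 ± 1.30 CPM (edgeR adjusted p = 2.42e-05), and IFI6, a mitochondrial protein gene, fell from 9.96 ± 1.24 to 6.37 ± 0.37 CPM (n = 3 each, edgeR adjusted p = 0.0006). The groups did not overlap in any of these 3 genes. The call of IFI6 was lost after all libraries were thinned to the smallest total (edgeR adjusted p = 0.141).

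DTX3L and PARP9 form a ubiquitin ligase and ADP-ribosyltransferase pair and start head to head on chromosome 3. DTX3L stood at 88.6, 88.0 and 90.1 CPM in shNTC and at 76.7, 68.3 and 70.3 CPM in shNEDD9 and fell 1.25-fold (edgeR adjusted p = 2.04e-08). PARP9 stood at 68.9, 64.4 and 71.5 CPM against 69.3, 66.0 and 65.8 CPM, with overlapping groups. ISG15, a ubiquitin-like protein that is conjugated to other proteins, was at 18.6 to 20.4 CPM in shNTC and 16.8 to 20.3 CPM in shNEDD9 and was not called. The 95% interval of its log2 fold change, -0.31 to 0.12, excludes a 2-fold difference, and that of PARP9 was -0.16 to 0.07. MX1, an antiviral GTPase gene, was at 3.29 to 5.38 CPM in shNTC and 5.37 to 6.45 CPM in shNEDD9. MX1 did not pass the test, with a log2 fold change of 0.42 and an edgeR adjusted p of 0.0676, but it was called higher when shNTC replicate 1 was left out, at 0.68 and an adjusted p of 0.0178. IFI27 had 9 counts against 10 and BST2, the tetherin gene, 1 against 3.

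**Figure D2:**
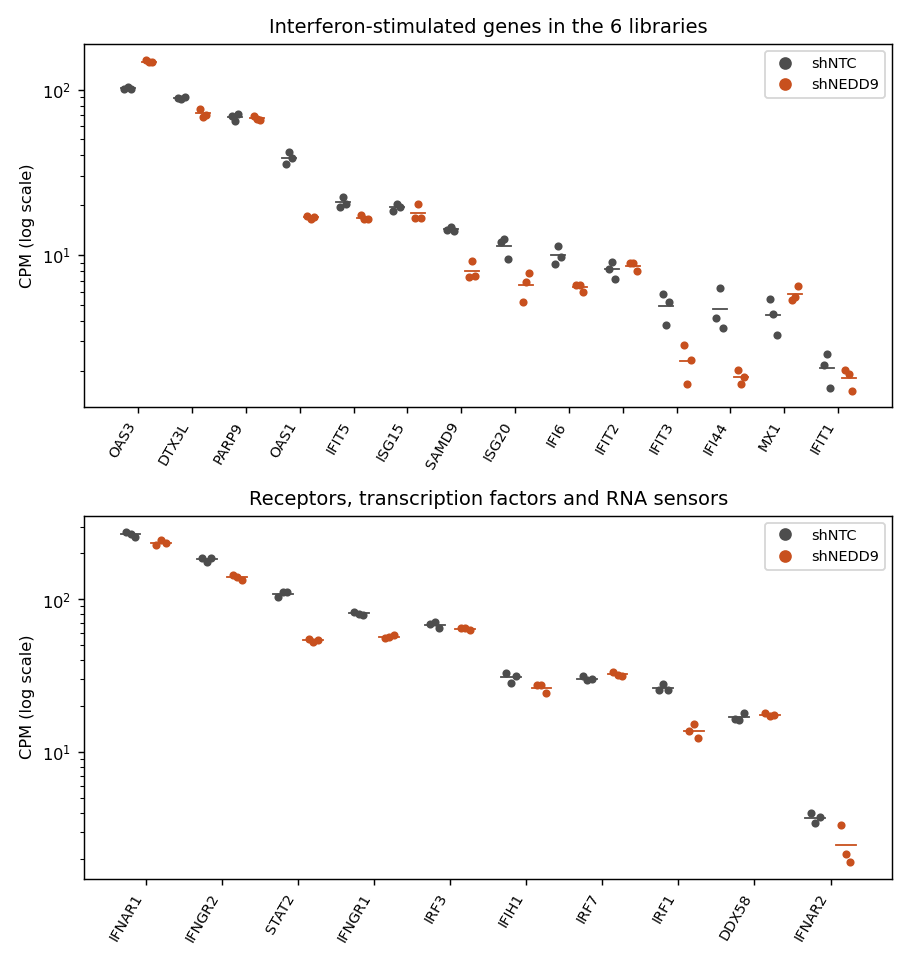
Levels of the tested interferon-stimulated genes (upper panel) and of the receptor, transcription factor and RNA sensor genes (lower panel) in each library, in CPM on a log axis. Points are libraries and short lines are group means; OAS1 and STAT2 separate downward in shNEDD9, OAS3 upward, and the points of PARP9 and ISG15 overlap.

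Antigen presentation genes included the largest decrease among the tested members, that of HLA-E. Of the 12 tested, 7 fell (HLA-E, HLA-B, HLA-C, TAPBP, ERAP1, TAP1 and B2M), 1 rose (TAP2) and 4 were not called (HLA-F, HLA-DMB, ERAP2 and NLRC5). The median log2 fold change was -0.35. Of these 12 genes 66.7% were called, 58.3% as lower and 8.33% as higher, where 71.4% of all tested genes were called. Of all tested genes 35.9% were lower and 35.5% higher.

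Among the class I heavy chains HLA-E, HLA-B and HLA-C fell. HLA-E (chromosome 6, 30489467 to 30494205, GRCh38) presents leader peptides of other class I chains to receptors of natural killer cells. It stood at 25.01, 31.1 and 24.6 CPM in shNTC and at 8.22, 5.98 and 8.17 CPM in shNEDD9. It fell 3.49-fold with a wide gap between the groups (log2 fold change -1.80, SE 0.13, edgeR adjusted p = 1.70e-45), and 3.10% of all tested genes had a log2 fold change that low or lower. HLA-B, a classical heavy chain, stood at 60.4, 63.2 and 61.4 CPM in shNTC and at 23.7, 28.5 and 26.6 CPM in shNEDD9. It fell 2.31-fold (log2 fold change -1.21, SE 0.08, edgeR adjusted p = 7.59e-56). HLA-C, the adjacent classical gene, shares 35 exon bases with HLA-B in GENCODE release 29. It stood at 96.7, 107 and 95.3 CPM against 47.8, 51.5 and 52.4 CPM. HLA-C fell 1.93-fold (log2 fold change -0.95, SE 0.06, edgeR adjusted p = 9.68e-58), and its groups did not overlap either. HLA-F, a non-classical gene, had only 25 counts in shNTC and 29 in shNEDD9, and the 95% interval of its log2 fold change ran from -1.06 to 0.53.

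HLA genes are alike in sequence and highly variable, and the reads of 1 such gene can be assigned to another or left uncounted, so these values are uncertain in how counts were split.

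B2M, the light chain that all class I molecules share, changed little. It stood at 320.1, 301.0 and 324 CPM in shNTC and at 272, 273 and 283 CPM in shNEDD9. Although the groups did not overlap, B2M fell only 1.15-fold (log2 fold change -0.20, SE 0.03, edgeR adjusted p = 1.71e-09). Per kilobase of exon in GENCODE release 29, B2M had the highest level of the antigen presentation genes in shNTC, at 51.8 ± 2.03 CPM per kb (n = 3). TAPBP followed at 44.7 ± 0.91, HLA-C at 39.7 ± 2.44 and HLA-B at 20.2 ± 0.46 CPM per kb, each apart from the next by more than its SD. In shNEDD9 B2M was at 45.4 ± 1.03 CPM per kb, TAPBP at 23.9 ± 0.89, HLA-C at 20.2 ± 0.97 and HLA-B at 8.61 ± 0.80 CPM per kb, in the same order. The length of a gene was that of all its annotated exons merged. The SD covers the spread between libraries and not error in these lengths or in the assignment of HLA reads, so the order is uncertain.

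The peptide-loading machinery moved in both directions. TAPBP (33299694 to 33314387 on chromosome 6) encodes tapasin, which holds class I molecules at the peptide transporter. It stood at 221, 229.7 and 228 CPM in shNTC and at 126, 118 and 119 CPM in shNEDD9, without overlap, and fell 1.87-fold (log2 fold change -0.90, SE 0.04, edgeR adjusted p = 4.60e-111). TAP1 and TAP2 encode the subunits of that transporter. TAP1 stood at 33.2, 41.5 and 40.7 CPM against 31.7, 28.1 and 29.8 CPM and fell by 0.34 on the log2 scale (edgeR adjusted p = 0.000105). TAP2 stood at 24.7, 21.4 and 24.6 CPM against 36.4, 33.2 and 33.2 CPM and rose 1.42-fold (edgeR adjusted p = 9.01e-08). Each shNEDD9 library was thus below the shNTC range for TAP1 and above it for TAP2. Another gene annotated on the same strand covers 32.3% of the exon bases of TAP2 and had 0 counts.

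ERAP1 and ERAP2 encode the aminopeptidases that trim peptides in the endoplasmic reticulum. ERAP1 stood at 54.3, 48.1 and 48.5 CPM in shNTC and at 33.9, 36.2 and 32.1 CPM in shNEDD9 and fell 1.50-fold (edgeR adjusted p = 2.88e-14). ERAP2, beside it on chromosome 5, was at 26.4 to 33.2 CPM and 29.8 to 33.7 CPM, with overlapping groups and a 95% interval of -0.15 to 0.19 for the log2 fold change. NLRC5, the transactivator of class I genes, was weakly expressed at 2.82 to 3.14 CPM in shNTC and 2.18 to 2.42 CPM in shNEDD9. Its groups did not overlap, but NLRC5 did not pass the test, with a log2 fold change of -0.37 and a 95% interval of -0.94 to 0.20. HLA-DMB, a class II peptide exchange gene, was at 36.3 to 41.2 CPM and 32.7 to 36.4 CPM and was not called.

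**Figure D3:**
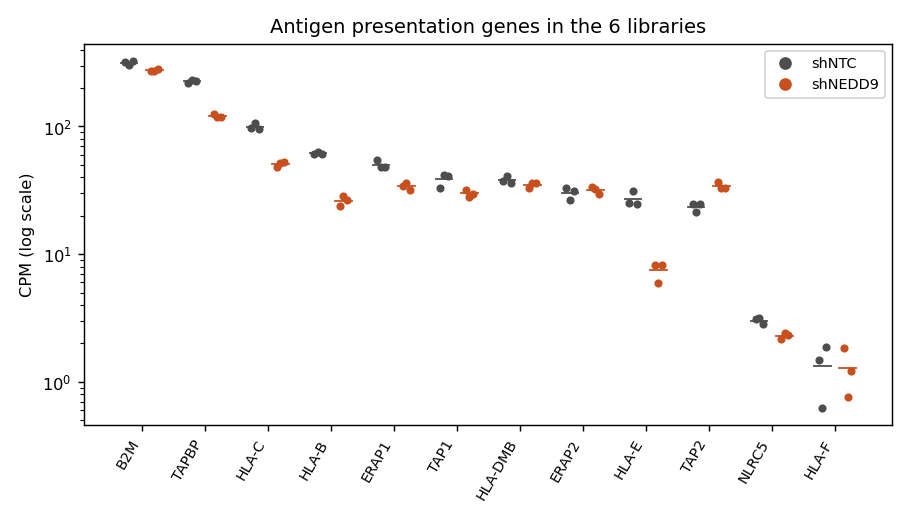
Levels of the 12 antigen presentation genes in each library, in CPM on a log axis, ordered by their mean in shNTC. Points are libraries and short lines are group means; HLA-B, HLA-C, HLA-E and TAPBP lie clearly lower in shNEDD9, B2M only slightly lower and TAP2 higher.

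All HLA and TAP members, TAPBP included, lie in the major histocompatibility complex on chromosome 6. Between HLA-F and TAPBP (29722775 to 33314387, GRCh38) 96 genes were tested, of which 36 fell and 35 rose, or 37.5% and 36.5%. These shares are near those of all tested genes, and the median log2 fold change there was -0.05. Within this region the stretch from TAP2 to HLA-DMB held 5 tested genes, of which 1 fell (TAP1) and 2 rose (TAP2 and the immunoproteasome gene PSMB8).

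All 4 interferon receptor subunits fell, where 35.9% of all tested genes did, but the call of IFNAR2 did not hold under every alternative. Their median log2 fold change was -0.46. IFNGR1, the ligand-binding chain of the interferon gamma receptor, stood at 83.0, 80.7 and 79.7 CPM in shNTC and at 55.9, 56.5 and 58.4 CPM in shNEDD9. It fell 1.42-fold (log2 fold change -0.51, SE 0.06, edgeR adjusted p = 5.71e-17). IFNGR2, the second chain, stood at 186, 177 and 186 CPM against 145, 139 and 134 CPM and fell 1.33-fold (edgeR adjusted p = 4.74e-23). In both genes every shNEDD9 library was below every shNTC library. IFNAR1, a chain of the type I receptor, moved less, from 266 ± 9.93 to 234 ± 8.54 CPM (n = 3 each), a 1.14-fold decrease (edgeR adjusted p = 1.19e-07).

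IFNAR2, the other type I chain, had few counts, at 4.03, 3.46 and 3.76 CPM in shNTC and 3.36, 2.16 and 1.92 CPM in shNEDD9. It fell by 0.69 on the log2 scale (SE 0.27, edgeR adjusted p = 0.0164). This call was lost when shNTC replicate 1 (edgeR adjusted p = 0.0811), shNEDD9 replicate 2 (0.0568) or shNEDD9 replicate 3 (0.135) was left out. In GENCODE release 29, 44.2% of the exon bases of IFNAR2 are shared with another gene on the same strand, which had 0 counts, and 39.1% with an antisense gene, which had 119 counts beside 121 for IFNAR2. The part of these overlaps in its low count was not tested. IFNAR2, IFNAR1 and IFNGR2 lie together on chromosome 21 (33229901 to 33479348). In this stretch 4 genes were tested and all 4 fell, where 35.9% of all tested genes did. The fourth was the antisense gene that overlaps IFNAR2.

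Of the transcription factors, STAT2 and IRF1 fell and IRF3 and IRF7 were not called. STAT2 (chromosome 12, 56341597 to 56360155), a part of ISGF3, stood at 104, 112 and 112 CPM in shNTC and at 55.6, 52.5 and 54.5 CPM in shNEDD9. It fell 2.01-fold with no overlap (log2 fold change -1.01, SE 0.06, edgeR adjusted p = 4.03e-70). IRF1, an activator of class I genes, stood at 25.6, 28.0 and 25.5 CPM against 13.8, 15.3 and 12.5 CPM and fell 1.89-fold (log2 fold change -0.92, SE 0.11, edgeR adjusted p = 1.51e-16). An antisense gene covers 22.0% of the exon bases of IRF1 and had 143 counts, beside 768 for IRF1. IRF3, the factor that viral RNA sensing activates, was at 65.4 to 71.0 CPM and 63.3 to 65.2 CPM, and IRF7 was at 29.5 to 31.6 CPM and 31.5 to 33.7 CPM. The groups of IRF3 did not overlap, but neither gene passed the test. The 95% intervals of their log2 fold changes were -0.20 to 0.04 and -0.10 to 0.24. IRF9, the DNA-binding part of ISGF3, had 23 counts in shNTC and 18 in shNEDD9 and was not tested. A gene on the same strand shares 48.4% of the exon bases of IRF9, and its part in this low count was not tested.

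Of the RNA sensors, IFIH1 fell and DDX58 was not called. IFIH1, which encodes MDA5, stood at 32.9, 28.6 and 31.8 CPM in shNTC and at 27.5, 27.5 and 24.4 CPM in shNEDD9 and fell 1.21-fold (edgeR adjusted p = 0.00427). The call was lost when shNTC replicate 1 (edgeR adjusted p = 0.0571) or shNEDD9 replicate 3 (0.0752) was left out. DDX58, which encodes RIG-I, was at 16.3 to 18.0 CPM in shNTC and 17.2 to 18.0 CPM in shNEDD9, with overlapping groups and a 95% interval of -0.19 to 0.26.

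Partner genes were also compared as ratios of counts within each library, which no scaling between libraries can change. 8 pairs were chosen with their values known. For 3 libraries against 3 the smallest p of a two-sided exact permutation test is 0.1, or 0.114 after adjustment over the pairs, and 7 pairs reached it. The choice of pairs may have fixed this outcome, so the number of pairs that reached it is no support. OAS3 had 2.48 to 2.84 counts for each OAS1 count in shNTC and 8.57 to 8.89 in shNEDD9, a shift of 1.72 ± 0.06 (SE) on the log2 scale. TAP2 had 0.515 to 0.745 counts for each TAP1 count in shNTC and 1.11 to 1.18 in shNEDD9, a shift of 0.90 ± 0.16. In both pairs the groups were far apart. The ratio of HLA-C to B2M went from 0.294 to 0.354 in shNTC to 0.176 to 0.188 in shNEDD9, a shift of -0.78 ± 0.09.

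Within the heavy chains, the ratio of HLA-E to HLA-C shifted by -0.88 ± 0.18 and that of HLA-B to HLA-C by -0.26 ± 0.06. HLA-E thus fell more than HLA-C, and its ratio to HLA-C was lower in every shNEDD9 library than in any shNTC library. ERAP2 to ERAP1 shifted by 0.64 ± 0.08 and PARP9 to DTX3L by 0.29 ± 0.04, again with groups that did not overlap. Only IFNGR1 to IFNGR2 overlapped, with ratios of 0.429 to 0.456 in shNTC and 0.386 to 0.437 in shNEDD9 (exact permutation p = 0.2).

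**Figure D4:**
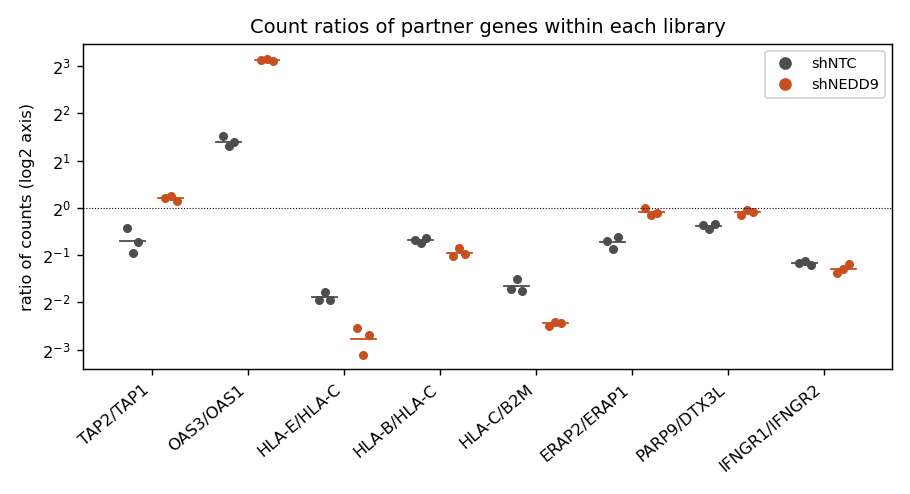
Ratio of counts of partner genes in each library, on a log2 axis, with points for libraries and short lines for the group means of the log2 ratio. The groups are apart in 7 of the 8 pairs, most widely for OAS3 to OAS1, and overlap for IFNGR1 to IFNGR2.

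Genes of the pathway that are not members were counted from lists, where 35.9% of all tested genes fell and 35.5% rose. Of 56 other interferon-stimulated genes 43 were tested, of which 29 fell (67.4%) and 4 rose (9.3%), with a median log2 fold change of -0.50. 3 of the 43 passed the count filter through shNTC alone, and so had to differ. Above a mean of 5 CPM the largest called changes were those of GBP3, an interferon-induced GTPase gene (11.97-fold lower), and ZC3HAV1, which encodes the zinc-finger antiviral protein (3.68-fold lower). Of 31 other antigen presentation genes 22 were tested, of which 9 fell (40.9%) and 10 rose (45.5%), with a median of -0.03. 1 of the 22 passed the count filter through shNTC alone. RFXAP, a subunit of the RFX complex that binds HLA promoters, was 1.75-fold higher. Of 27 genes of interferon signalling and its regulators, 21 were tested, of which 10 fell (47.6%) and 4 rose (19%), with a median of -0.11. STAT3 was 3.37-fold lower and IRF2BP2, which encodes a partner of the repressor IRF2, 2.99-fold higher. Of 22 interferon genes 21 had 0 counts in every library, and IFNL1 had 2 counts in all, both in shNEDD9.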

How the data were processed

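Total RNA of VCaP cells was sequenced from strand-marking libraries (TruSeq), per the labels' protocols. The table deposited by the authors holds raw read counts per gene, 1 column per library. The submitters' processing notes list STAR 2.5.3a, featureCounts, Subread 1.6.2, cutadapt 1.9 and FastQC 0.11.5, with the builds hg19 and GRCh38 and no roles. The annotation release and the strand setting are not given in the sources used here, so reads of overlapping or near-identical genes may have been dropped or split. All 58735 identifiers occur in GENCODE release 29 (GRCh38), from which positions, exon lengths and overlaps were taken. A row that names no gene (1 row) was not used. Promoter sequences are from RefSeq (GRCh38.p14).

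Samples were grouped by the hairpin in their titles. Counts were tested with edgeR 4.0.16 in R 4.3.3 (glmQLFit with robust estimation, glmQLFTest), with TMM factors, filterByExpr at a minimum count of 10 (here 1.43 CPM in at least 3 libraries) and Benjamini-Hochberg adjustment over 13958 genes. A standard error is the absolute log2 fold change before moderation over the square root of the F statistic, and 95% intervals are normal. CPM use TMM factors. The procedure was tested on simulated data. No replicate pair was as alike as counting error alone would make it (chi-square per degree of freedom 1.14 to 1.20). The excess was small and does not show that the libraries are independent. Each library was counted once in the test. Per-library values were to be given for called members with an absolute log2 fold change of at least 1 and for the 3 largest called changes in each role. Other members were added after their values were seen. The members and lists were chosen with earlier results of these data known. Some genes that the rule would name are not reported here. Alternatives were RLE, upper-quartile and no scaling factors, no count filter, a mean of at least 1 CPM, DESeq2 1.42.0, voom of limma 3.58.1, the replicate number as a block, thinning to the smallest library and each library left out.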

Additional observations from a re-analysis of the deposited data

How the results depend on the processing

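The direction and call of 20 of the 24 called members held under all 15 alternatives run, HLA-B, HLA-C, HLA-E, TAPBP, TAP2, OAS1, OAS3, STAT2 and IRF1 among them. IFIT5, IFI6, IFNAR2 and IFIH1 each lost the call under at least 1 alternative, with adjusted p-values of up to 0.0917, 0.141, 0.317 and 0.152. All 4 lost it after thinning to the smallest library, which leaves fewer counts. Without single libraries the interferon-stimulated genes called as higher numbered 1 to 2, since MX1 joined OAS3. With single libraries left out the median log2 fold change of antigen presentation genes was -0.44 to -0.35 and that of the other pathway lists -0.34 to -0.29. After thinning the latter was -0.24, and the cause was not tested. The response element core with a C required after its second GAAA was found in 17 members rather than 23. Same-numbered libraries did not deviate together (r of -0.03, 0.01 and 0.03). The deviations were close to counting error, so this check could not exclude that the numbers pair the samples. With the replicate block 9834 genes were called, against 9964, and the same 24 members. The COL1A1 call was also lost with DESeq2 (adjusted p = 0.0622) and after thinning (0.148). Low counts left 6 members untested and widen the intervals of IFIT1, HLA-F and NLRC5.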

Other observations

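Among interferon-induced genes that are not members, those of the guanylate-binding proteins are described here after their values were seen. These large GTPases attack the vacuoles of intracellular pathogens. GBP3 stood at 26.7 ± 1.35 CPM in shNTC and 2.20 ± 0.16 CPM in shNEDD9 (SD, n = 3 each) and fell, with a log2 fold change of -3.58. GBP2 had 69 counts in shNTC and 6 in shNEDD9, and GBP4 had 37 and 5. Both passed the count filter through shNTC alone and so had to differ. GBP1, with 5 counts and 1, and GBP5, with 10 and 3, were not tested. Interferon-stimulated genes that rose were PNPT1, a mitochondrial RNA-processing gene (1.79-fold), LGALS3BP, a secreted glycoprotein gene (1.77-fold), USP18 and CMPK2. USP18 encodes the protease that removes ISG15 from proteins.

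On the signalling side the genes named here were also chosen after their values were seen. The kinase gene JAK1 went from 102 ± 5.70 to 52.9 ± 0.92 CPM and IRF2 from 41.7 ± 3.86 to 20.9 ± 0.96 CPM (SD, n = 3 each). MYD88 fell 2.53-fold, whereas TLR3 rose 1.48-fold and PTPN2 1.44-fold. Of the 21 tested genes of interferon signalling and its regulators, 10 fell, 4 rose and 7 were not called. Of all tested genes 35.9% fell and 35.5% rose. In antigen presentation the lectin chaperone genes of the endoplasmic reticulum went the other way from HLA-B, HLA-C and TAPBP. CANX rose 1.50-fold and CALR 1.34-fold, and PDIA3, the thiol oxidoreductase gene of the loading complex, rose 1.10-fold. These 3 genes also serve protein folding in general.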
